A study of Rattus norvegicus with 11 samples.

Results

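The genes described here make up the MHC class I pathway and the immunoproteasome, the route by which a cell shows fragments of its own proteins to CD8 T cells. They were chosen by name from a list of 10, and 8 of them are listed among 23093 features shared by all libraries: B2m, RT1-A1, RT1-CE5, Tap1, Tap2, Psmb8, Psmb9 and Nlrc5. Tapbp and Psmb10 were not analysed here. The list was drawn up when the difference between homozygous replicates 4 to 6 and wild type was already known, so the values of that comparison are given as a description, with no test.

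RNA was sequenced from 11 libraries labelled as cerebellar cortex of rats 10 weeks old on a Sprague-Dawly (SD) background. The groups were 6 libraries of rats homozygous for the R571X truncation of CSB, the DNA repair protein of Cockayne syndrome encoded by Ercc6 (CSBR571X/R571X), 2 of rats titled CSB+/- and taken here as heterozygous, whose genotype is written CSBR571X/-, and 3 of wild-type rats. Whether the libraries of a group stem from different animals is not stated, so each p-value reflects only the variation among these libraries, part of which may be technical. The authors scaled the libraries in 2 separate sets. Set 1 holds homozygous replicates 1 to 3 with the heterozygous libraries, and set 2 holds homozygous replicates 4 to 6 with the wild type. The tests and fold differences of the main comparisons stay within a set, and none is given between heterozygous and wild-type libraries, which share no set. The pattern over all 11 libraries near the end is a description across sets. In the closing sections the settings with no set term and with a replicate block, and Dixon's check of the homozygous libraries, also cross the sets.

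In the pathway, the proteasome cuts cytosolic proteins into peptides. Interferon exchanges its constitutive catalytic subunits for inducible ones, among them those encoded by Psmb8 and Psmb9, which favours peptides that fit class I molecules. The TAP transporter, a dimer of the Tap1 and Tap2 products, carries peptides into the endoplasmic reticulum, where they are loaded onto a class I heavy chain (in the rat an RT1 gene such as RT1-A1 or RT1-CE5) paired with beta-2 microglobulin, the product of B2m. Nlrc5 encodes a transactivator of class I genes. In the healthy brain most of these genes are expressed at low levels, mainly in microglia and vessel cells, and neurons express class I at selected sites.

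The members lie on 3 chromosomes in the rn6 build. Psmb9 (chromosome 20, 3973420 to 3978845, minus strand), Tap1 (3979035 to 3989669, plus), Psmb8 (3990613 to 3993769, plus) and Tap2 (3995544 to 4009587, plus) form a block of 36168 bases inside the class II region of the MHC. Psmb9 and Tap1 point away from each other with 189 bases between them. RT1-CE5 (4892702 to 4896991, minus) and RT1-A1 (5351605 to 5421098, plus) lie farther along chromosome 20. B2m is on chromosome 3 (114087287 to 114093309, plus) and Nlrc5 on chromosome 19 (10905542 to 10976396, minus). All 8 are annotated as protein coding. No other listed feature overlaps B2m, Tap1, Tap2, Psmb8, Psmb9 or Nlrc5. RT1-A1 is overlapped by 4 features, among them RT1-A2, and RT1-CE5 by 7, among them RT1-CE4 and RT1-CE7. RT1 genes can also share reads with near-identical copies, so the counts of RT1-A1 and RT1-CE5 are uncertain.

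Promoter windows of 300 bases (250 before and 50 after the annotated start of the gene) were taken from RefSeq on the GRCr8 build for the 9 of 10 listed genes that have one, Tapbp and Psmb10 included. Windows of 5 genes are shown, since their members' values are set against each other below: the divergent pair Tap1 and Psmb9, the light chain B2m and both heavy chains. Capitals mark matches, on either strand, to the core of the interferon-stimulated response element (GAAA, any 2 bases, GAAA), the gamma-activated site (TTC, any 3 bases, GAA), the kappaB site (GGG, any 2 bases, TT, any base, CC) and the CCAAT box that forms the Y element of class I promoters.
Tap1, chr20:4668494-4668793, minus strand: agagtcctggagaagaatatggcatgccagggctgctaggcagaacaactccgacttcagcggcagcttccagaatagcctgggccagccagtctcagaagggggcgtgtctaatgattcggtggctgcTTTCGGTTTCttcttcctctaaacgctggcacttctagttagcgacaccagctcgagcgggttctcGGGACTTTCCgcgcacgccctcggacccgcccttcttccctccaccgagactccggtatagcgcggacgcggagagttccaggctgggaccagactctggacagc
Psmb9, chr20:4668750-4669049, plus strand: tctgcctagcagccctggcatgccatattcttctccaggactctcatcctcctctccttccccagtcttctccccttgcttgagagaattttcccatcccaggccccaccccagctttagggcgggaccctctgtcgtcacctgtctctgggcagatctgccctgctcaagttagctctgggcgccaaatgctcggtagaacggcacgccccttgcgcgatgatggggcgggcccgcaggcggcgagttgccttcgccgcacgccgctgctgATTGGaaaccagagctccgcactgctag
B2m, chr3:129549080-129549379, plus strand: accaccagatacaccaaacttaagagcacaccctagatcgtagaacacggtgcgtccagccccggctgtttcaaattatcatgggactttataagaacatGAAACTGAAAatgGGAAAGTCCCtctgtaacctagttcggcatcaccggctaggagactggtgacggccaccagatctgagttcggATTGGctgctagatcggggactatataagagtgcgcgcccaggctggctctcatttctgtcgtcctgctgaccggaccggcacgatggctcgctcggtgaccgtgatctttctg
RT1-A1, chr20:4906959-4907258, plus strand: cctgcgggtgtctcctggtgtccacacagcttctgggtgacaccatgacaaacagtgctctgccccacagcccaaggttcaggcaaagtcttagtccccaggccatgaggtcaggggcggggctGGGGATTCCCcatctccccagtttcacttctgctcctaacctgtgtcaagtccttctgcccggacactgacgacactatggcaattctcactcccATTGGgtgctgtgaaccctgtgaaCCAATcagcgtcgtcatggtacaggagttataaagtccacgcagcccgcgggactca
RT1-CE5, chr20:3484041-3484340, minus strand: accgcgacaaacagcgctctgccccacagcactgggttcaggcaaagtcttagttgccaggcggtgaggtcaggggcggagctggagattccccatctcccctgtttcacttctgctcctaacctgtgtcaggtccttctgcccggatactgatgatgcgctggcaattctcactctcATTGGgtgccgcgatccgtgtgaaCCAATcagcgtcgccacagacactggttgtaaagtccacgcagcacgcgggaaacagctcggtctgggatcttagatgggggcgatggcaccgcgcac

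The interferon-stimulated core was present in 6 of the 9 windows, those of B2m, Tap1, Tap2, Psmb8, Tapbp and Psmb10, against 3.92% of all 33469 windows of the same length. The kappaB site was present in 4 (B2m, RT1-A1, Tap1 and Tapbp) against 5.00% of all windows, the CCAAT box in 5 (B2m, Psmb8, Psmb9, RT1-A1 and RT1-CE5) against 37.5%, and the gamma-activated site in 1 (Psmb8) against 8.87%. The motifs of the Tap1 window begin at -121 and -55 from its start. The starts of Tap1 and Psmb9 are 457 bases apart in this build, so their windows share 44 bases. The RT1-A1 and RT1-CE5 windows each hold a pair of CCAAT boxes. These begin at -31 and -7 in RT1-A1 and at -72 and -48 in RT1-CE5. Aligned end to end, the RT1-A1 and RT1-CE5 windows were identical at 226 of 342 positions (66.1%), beside 48.8% for RT1-A1 and B2m. The 342 positions include gaps, which count as not identical, so 66.1% understates the likeness where both windows hold bases. A match is a description of the letters and not a site shown to be bound.

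The deposited libraries held 5406669 to 8723823 reads assigned to features. Ercc6, which checks the genotype labels, was lower in every homozygous library than in the controls of its set. Homozygous replicates 1 to 3 held 153 to 158 normalized reads, beside 228 and 178 in the heterozygous libraries. Homozygous replicates 4 to 6 held 85.8 to 123, beside 295 to 407 in the wild type. Markers matched the labelled tissue only in part. Pcp2, a defining marker of Purkinje cells, is listed in 6 libraries with at most 2 reads. Calb1, which Purkinje cells and some forebrain neurons express, held 538 to 3364 normalized reads in the 11 libraries. Neurod6, of forebrain neurons, held 331 to 1985 normalized reads in every library. Reads of the Y-linked gene Eif2s3y numbered 669 to 1875 in 5 libraries (homozygous replicates 2, 3, 4 and 6, heterozygous replicate 2). They numbered 0 or 1 in the remaining 6, which include the whole wild-type group.

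**Figure D1:**
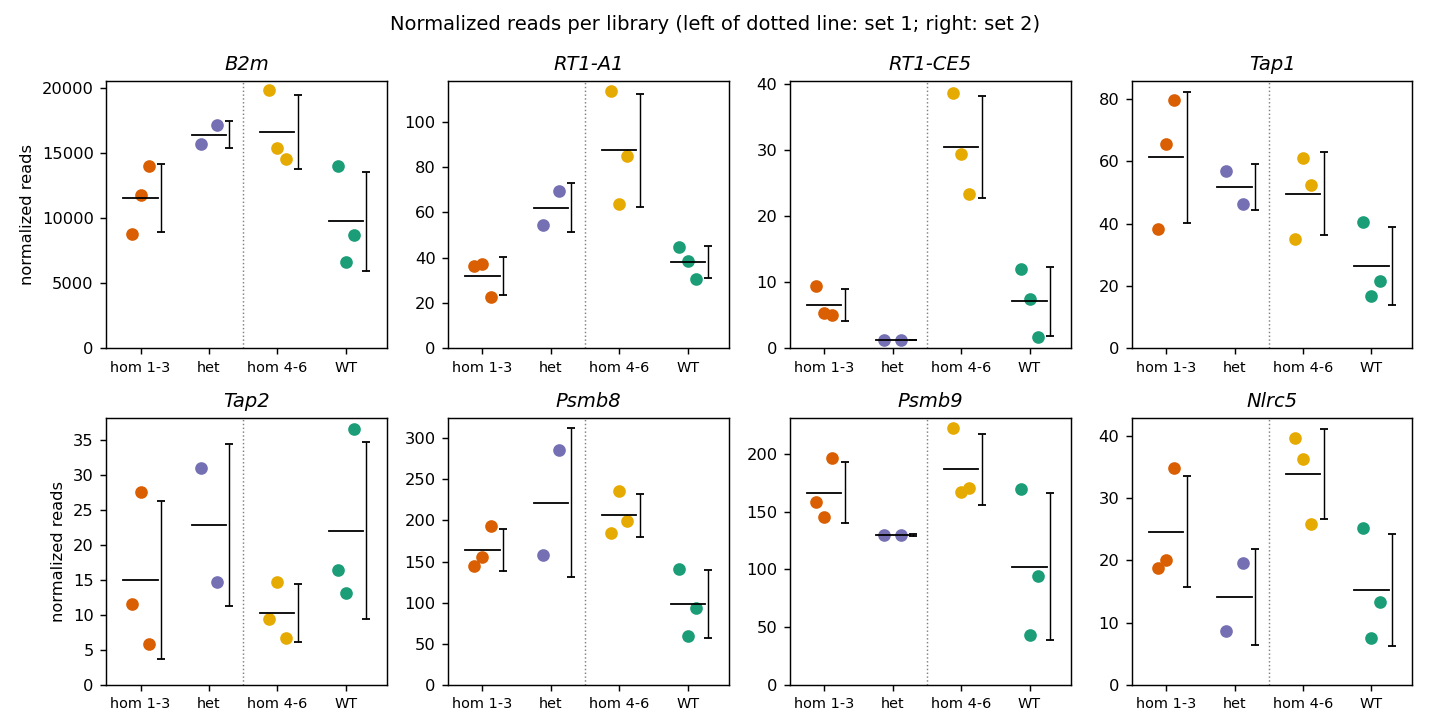
Normalized reads of the 8 genes in each of 11 libraries (points), with the group mean (line) and SD (bar); hom is homozygous, het heterozygous and WT wild type, and the dotted line separates the 2 normalization sets. B2m and RT1-A1 lie above all wild-type libraries in homozygous replicates 4 to 6 and below both heterozygous libraries in homozygous replicates 1 to 3.

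Levels can be compared between genes only per length. Over the 11 libraries B2m held 7283 ± 2176 normalized reads per kilobase (SD), more than any other member in all 11. Psmb9 held 97.2 ± 32.1 and Psmb8 81.4 ± 30.3 per kilobase. These neighbours in the order did not differ beyond their spread, although Psmb9 was the higher in 8 of 11 libraries. RT1-A1 followed at 19.9 ± 9.91 and Tap1 at 11.3 ± 4.57. Tap2 (7.02 ± 4.19), RT1-CE5 (6.63 ± 6.85) and Nlrc5 (3.96 ± 1.90) closed the order, and RT1-CE5 was above Nlrc5 in only 6 of 11 libraries. The B2m level per kilobase was 255 to 929 times that of RT1-A1 within a library.

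The first comparison set homozygous replicates 4 to 6 against wild type, to describe expression in rats homozygous for the CSB truncation. The fold differences below describe the contrast that chose the genes. All members but Tap2 had a higher mean in the homozygous libraries, from 1.70-fold for B2m to 4.31-fold for RT1-CE5, and 5 of 8 did so with no overlap between the groups. The median log2 difference of the 8 genes was 1.10, on the log2(value + 1) scale, and that of all 20956 features tested was -0.0011. Over all features, 6.14% lay wholly above and 5.27% wholly below the wild type, and 0.0382% passed an adjusted p of 0.05 in limma. Nothing is read from the members' count against these shares.

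The light chain B2m held 19820, 15403 and 14553 normalized reads in homozygous replicates 4, 5 and 6. The wild-type replicates held 13978, 6607 and 8694. The groups did not overlap, and wild-type replicate 1 lay just below the lowest homozygous library. Group means were 16592 ± 2828 and 9759 ± 3800 (SD over 3 libraries each), and the log2 difference was 0.82 with an SE of 0.26.

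Of the heavy chains, RT1-A1 held 113, 63.5 and 85.0 normalized reads in homozygous replicates 4 to 6 and 44.9, 38.5 and 30.7 in the wild type. Each homozygous library was above each wild-type one, with a log2 difference of 1.15 (SE 0.32). RT1-CE5 held 38.6, 29.5 and 23.3 against 12.04, 7.51 and 1.66. It had the largest difference among the 8 members (2.21, SE 0.59) and the lowest mean over the 11 libraries, 12.2 normalized reads.

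The transporter genes differed in sign. Tap1 held 35.1, 61.2 and 52.5 normalized reads in homozygous replicates 4 to 6 and 40.5, 16.9 and 21.6 in the wild type, so that the lowest homozygous library lay below wild-type replicate 1. Tap2 held 9.35, 14.7 and 6.66 against 16.4, 13.1 and 36.5, the only member with a lower mean in the homozygous libraries. The log2 differences were 0.95 (SE 0.39) and -0.96 (SE 0.59). That of Tap2 was -0.54 without wild-type replicate 3, its highest library. Taken per kilobase within a library, no scaling enters the ratio of Tap1 to Tap2. It was 2.199, 2.44 and 4.62 in the homozygous libraries and 1.45, 0.754 and 0.347 in the wild type. Tap2 held only 8, 13 and 8 reads in these homozygous libraries and 15, 14 and 44 in the wild type. In set 1 the ratios overlapped, at 1.94, 1.40 and 8.04 in homozygous replicates 1 to 3 and 1.08 and 1.86 in the heterozygous libraries.

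The immunoproteasome subunits were higher on average. Psmb8 held 185, 236 and 199 normalized reads in homozygous replicates 4 to 6 and 141, 59.1 and 93.8 in the wild type, with no overlap (log2 difference 1.15, SE 0.32). Psmb9 held 222, 167 and 171 against 170, 43.2 and 93.8, so that wild-type replicate 1 fell inside the homozygous range (1.06, SE 0.38). Psmb9 replaces the constitutive subunit Psmb6 in the assembled particle. Per kilobase it amounted to 4.74%, 3.11% and 2.37% of Psmb6 in the homozygous libraries and 4.52%, 1.11% and 2.16% in the wild type, and these ranges overlap. The transactivator Nlrc5 held 39.7, 36.3 and 25.8 against 25.2, 7.51 and 13.3 (1.23, SE 0.48), with less than 1 normalized read between the groups.

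**Figure D2:**
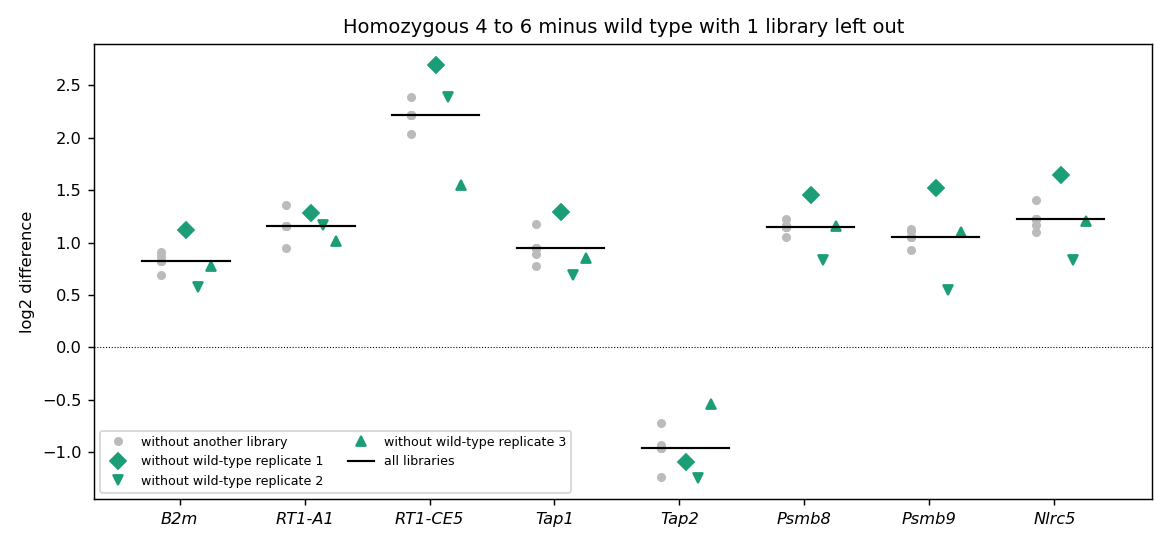
Log2 difference of each gene between homozygous replicates 4 to 6 and wild type (black line), and the same with 1 of the 11 libraries left out (points; green symbols mark the wild-type libraries). Without wild-type replicate 1 the 7 positive differences are larger than with all libraries, and without wild-type replicate 2 Psmb9 falls from 1.06 to 0.55.

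The wild-type libraries differed among themselves. In 7 of the 8 genes wild-type replicate 1 was the highest of the 3, the exception being Tap2. Without it 7 of 8 members lay wholly above the wild type, as did 12.1% of all features, and the median log2 difference was 1.37. Without wild-type replicate 2 the median was 0.76, and Psmb9 went from 1.06 to 0.55. Homozygous replicate 5, which like the wild-type libraries held no read of Eif2s3y, was above all 3 of them in 6 of 8 members, as it was in 24.2% of all features. With a term added to the fit for libraries holding more than 10 reads of Eif2s3y, the median log2 difference was 0.97. Tap2 was then -0.61, and the rest lay between 0.63 (B2m) and 2.39 (RT1-CE5). These values belong to the contrast that chose the genes, and the part of sex in the differences was not tested.

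Markers of other cell types moved with these values in part. Summed over 7 microglia markers, wild-type replicates 1 to 3 held 4560, 2179 and 2478 normalized reads and homozygous replicates 4 to 6 between 2968 and 4286, so wild-type replicate 1 was highest here too. Of these markers 6 of 7 had a positive difference (median 0.37), and none passed in limma, edgeR or DESeq2, nor at an unadjusted p under 0.05. Aif1, a calcium-binding protein of microglia, differed by 0.77 (SE 0.39), the growth factor receptor Csf1r by 0.41 (SE 0.42), the complement gene C1qb by 0.37 (SE 0.31) and Tmem119 by -0.18 (SE 0.86). Markers of perivascular and other macrophages had a negative difference in 5 of 7 (median -0.42), and none passed in limma, edgeR or DESeq2. Their sums were 258, 432 and 239 in homozygous replicates 4 to 6 and 1042, 213 and 322 in wild-type replicates 1 to 3. The summed level of 11 T and NK cell markers was 169 to 209 in the homozygous libraries and 114 to 164 in the wild type, and 4 of the 11 had at most 3 reads in any library. Without Cd4 the sums overlapped, at 58.5, 100.9 and 59.97 in homozygous replicates 4 to 6 and 85.3, 61.9 and 64.8 in the wild type. Cd3e, of the T cell receptor complex, held 3.5, 10.2 and 2.5 against 6.6, 6.6 and 42.3. Cd4, carried by helper T cells and, in the rat, also by macrophages, differed by 0.83 (SE 0.33) and did not pass (adjusted p = 0.742 in limma). The part of these cell types in the members' differences was not tested, and in tissue RNA fewer cells of a type cannot be told from less RNA per cell.

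The second comparison set homozygous replicates 1 to 3 against the heterozygous libraries, none of which took part in the first comparison. The genes were chosen with earlier results of these data known, so this is not a fully independent test of them. No member passed in limma with Benjamini-Hochberg adjustment over 20956 features (0 of 8), nor did any other feature (0%). An unadjusted p under 0.05 was found in 2 members and in 2539 features, which is 12.1% of all. edgeR also called 0% of all features, and DESeq2 called 1.65% of the 12400 features to which it gave an adjusted p, none of them a member. RT1-CE5 was not among those 12400, so DESeq2 could not call it. The members split evenly, 4 with a positive and 4 with a negative difference, and their median was -0.097 on the log2(value + 1) scale, against 0.042 for all features. The homozygous libraries lay wholly above the heterozygous in 2 members and wholly below in 2, where 15.2% and 15.1% of all features did so.

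B2m was lower in the homozygous libraries. It held 8798, 11786 and 13981 normalized reads in homozygous replicates 1 to 3 and 15643 and 17110 in the heterozygous replicates. All 3 lay below both, but the difference of -0.53 (SE 0.29, 95% interval -1.17 to 0.10) did not pass (adjusted p = 0.492 in limma). RT1-A1 held 36.1, 37.1 and 22.4 against 54.5 and 69.6, again without overlap (-0.96, SE 0.36, 95% interval -1.75 to -0.18, adjusted p = 0.346 in limma). The light chain and this heavy chain thus had negative differences against heterozygous and positive ones against wild type.

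RT1-CE5 went the other way from RT1-A1 here. It held 9.38, 5.30 and 4.98 normalized reads against 1.24 and 1.22, which is 24 reads in 3 libraries against 2 reads in 2. The ratio was 5.52 with a 95% counting interval of 1.37 to 48.2, which covers counting error only. The log2 difference of 1.71 (SE 0.65) did not pass (adjusted p = 0.349 in limma).

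The other members overlapped between the groups or differed by little. Psmb9 held 158, 145 and 196 normalized reads against 130 and 129, just above both (0.34, SE 0.43, 95% interval -0.58 to 1.27). Psmb8 held 144, 156 and 193 against 157 and 286 (-0.38, SE 0.36, 95% interval -1.15 to 0.39). The heterozygous libraries were thus far apart in Psmb8 and nearly equal in Psmb9. Tap1 held 38.2, 65.7 and 79.7 against 57.0 and 46.4 (0.18, SE 0.44), and Tap2 held 11.5, 27.6 and 5.81 against 31.0 and 14.7 (-0.73, SE 0.66). Nlrc5 held 18.8, 20.1 and 34.9 against 8.68 and 19.5 (0.81, SE 0.54). Their adjusted p in limma lay between 0.578 and 0.895, and the 95% interval of Tap1 ran from -0.77 to 1.14, which does not show equal levels.

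**Figure D3:**
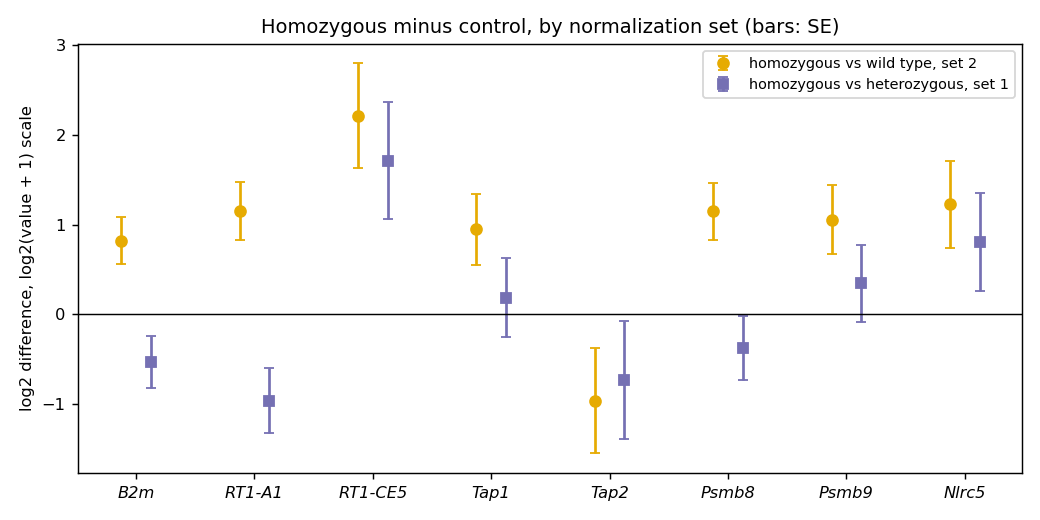
Log2 difference (points) with its SE (bars) for each gene, homozygous minus wild type within set 2 (circles) and homozygous minus heterozygous within set 1 (squares). RT1-CE5, Tap1, Psmb9 and Nlrc5 are positive in both, Tap2 is negative in both, and B2m, RT1-A1 and Psmb8 differ in sign.

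Cell type markers also differed between these groups. The 7 microglia markers were all lower in the homozygous libraries (median -0.69, none past the threshold in limma, edgeR or DESeq2 and 2 at an unadjusted p under 0.05), with summed levels of 2820 to 4318 against 5564 and 6229 normalized reads. Markers of perivascular and other macrophages went the other way, with a positive difference in 6 of 7 (median 0.26). None of these passed in limma, edgeR or DESeq2, and 1 had an unadjusted p under 0.05 in limma. The 3 endothelial markers were lower too (median -1.46, none past the threshold in limma or edgeR, 2 in DESeq2 and 3 at an unadjusted p under 0.05). DESeq2 called the receptor gene Tek and the glucose transporter gene Slc2a1, named after their values were seen. The markers had summed levels of 3780 to 6409 against 10624 and 20891. Slc2a1 alone made up most of each sum, with 3367, 5911 and 5606 in homozygous replicates 1 to 3 and 9622 and 19534 in the heterozygous libraries. Only 3 of the 8 endothelial genes named are listed in both sets. All 8 granulocyte and blood markers had a negative difference (median -0.55, none past the threshold in limma, edgeR or DESeq2 or at an unadjusted p under 0.05). Of the cerebellar neuron markers 2 were tested, both with a positive difference and an unadjusted p under 0.05, and neither passed in limma or edgeR. They were Calb1 (1.15, SE 0.42) and Neurod1, a transcription factor of granule and other neurons (2.10, SE 0.52), which DESeq2 called. Over all 11 marker lists, 11 of 57 genes tested had an unadjusted p under 0.05 in limma here, beside 12.1% of all features. The part of these cell types in the members' values was not tested.

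In 7 lists of other antigen presentation and proteasome genes, class II included, 52 genes were tested. None passed in limma in either comparison. Against wild type 12 had an unadjusted p under 0.05 in limma, where 6.35% of all features did. Against heterozygous 8 did so, where 12.1% of all features did. edgeR called none of the 52 genes, though it called 0.0239% of all features against wild type. DESeq2 called 2 of them against wild type, the class II genes Cd74 and RT1-Db1, where it called 0.249% of all features, and 0 against heterozygous. The lists are described by the counts and medians that follow.

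The 9 tested non-catalytic subunits of the 20S core, the barrel that constitutive and immunoproteasomes share, had a positive difference in both comparisons. The median was 0.42 against wild type and 0.17 against heterozygous. Of the constitutive catalytic subunits, Psmb6 held 2212, 2526 and 3398 normalized reads in homozygous replicates 4 to 6 and 1772, 1829 and 2053 in the wild type, a log2 difference of 0.50 (SE 0.18). Psmb7, the subunit that Psmb10 replaces, had a difference of 0.27 (SE 0.17). Against heterozygous their differences were -0.09 and 0.00. Psme3, a nuclear activator that caps the proteasome and is not induced by interferon, differed by 0.11 and -0.08.

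Genes that trim and load peptides went no common way. Of 6 tested, 3 had a positive difference against wild type and 1 against heterozygous, with medians of -0.03 and -0.15. Calr, the chaperone calreticulin of the loading complex, held 10205, 11014 and 10781 normalized reads against 10372, 12094 and 12355 in the wild type. Canx, the chaperone calnexin that holds the new heavy chain, differed by 0.04 and 0.07 in the comparisons with wild type and heterozygous. Erap1, the aminopeptidase that trims peptides in the endoplasmic reticulum, differed by 0.42 (SE 0.20) and -0.04 (SE 0.23). Tapbpl, a relative of Tapbp that edits peptides, differed by 0.20 and -0.33.

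Of 27 regulators of class I listed by name 12 were tested, with medians of 0.15 and -0.09. Irf1, the factor that binds interferon response elements, held at most 18.8 normalized reads in any library. It is overlapped by a same-strand feature, which could have taken its reads, so its differences (0.66 and -0.09) are uncertain. Rfx5, a subunit of the complex that binds class I and class II promoters, and Irf2, a partner of Irf1, held at most 1.24 and 2.34 normalized reads and are each overlapped by a same-strand feature too, so these reads do not show how strongly they are expressed. Other class I and class I-like genes had medians of 0.47 and -0.05 over 14 tested. Among them Cd1d1, which presents lipids, differed by 0.57 and 0.26, Hfe, of iron sensing, by -0.22 and -0.04, Mr1, which presents vitamin B metabolites, by -0.26 and -0.02, and Procr, the protein C receptor, by -0.18 and -0.51.

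Class II genes, which present extracellular peptides, had a positive difference in 7 of 8 tested against wild type and 6 of 8 against heterozygous. Cd74, the invariant chain, held 1800, 1278 and 1145 normalized reads in homozygous replicates 1 to 3 against 530 and 422 in the heterozygous libraries (log2 difference 1.54, SE 0.55, adjusted p = 0.331 in limma). The beta chain genes RT1-Db1 and RT1-Bb differed by 1.59 (SE 0.55) and 1.94 (SE 0.87), and RT1-Da held at most 3.40 normalized reads in any library. The class II median was 1.57 over 8 genes there, beside -0.097 for the 8 members, and 1.52 beside 1.10 against wild type. The difference between the lists was not tested.

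**Figure D4:**
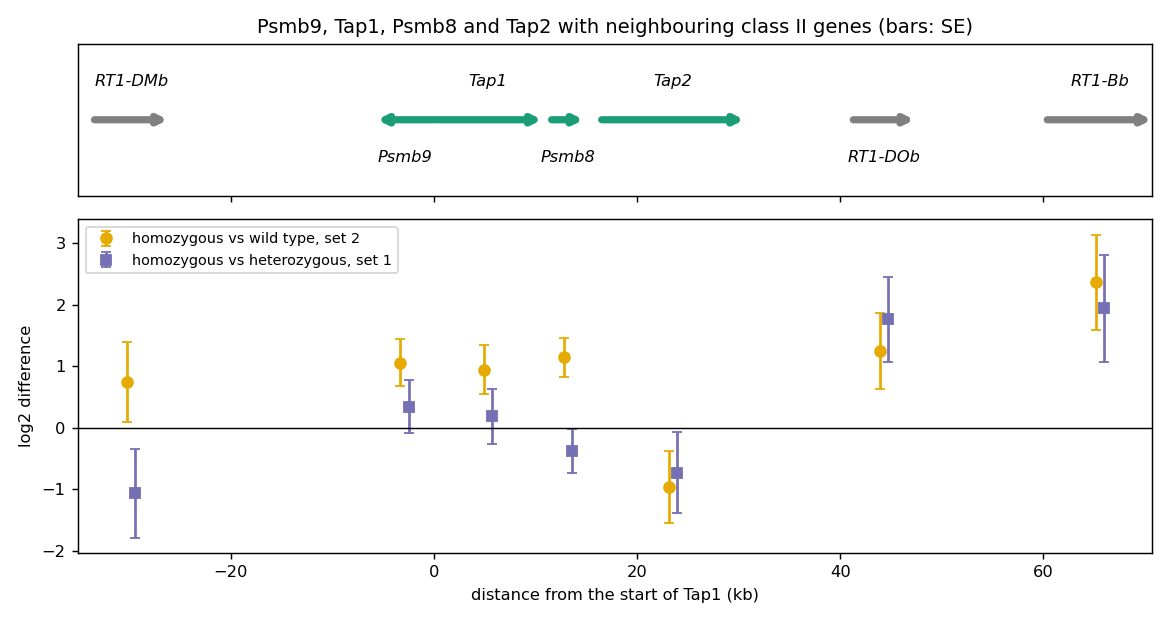
Position of Psmb9, Tap1, Psmb8 and Tap2 (green arrows, pointing along transcription) and the neighbouring class II genes (grey arrows) in kilobases from the start of Tap1, above the log2 difference of each gene with its SE in both comparisons. Against wild type Psmb9, Tap1 and Psmb8 lie between 0.95 and 1.15 and Tap2, next to them on the same strand as Tap1 and Psmb8, at -0.96.

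Psmb8 ends 1774 bases before Tap2 begins, and their log2 differences were 1.15 and -0.96 against wild type and -0.38 and -0.73 against heterozygous. The divergent pair Psmb9 and Tap1 had differences of 1.06 and 0.95 against wild type and 0.34 and 0.18 against heterozygous. Per kilobase Tap1 was 5.80% to 16.6% of Psmb9 over the 11 libraries, and wild-type replicate 2 held the lowest value of both.

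With all 11 libraries on 1 scaling, the median of the 8 members' log2 values, each centred on its own median, gave 1 pattern. It was highest in homozygous replicates 4 (0.51), 5 (0.45) and 6 (0.28). It was lowest in wild-type replicates 2 (-1.18) and 3 (-0.71). The other 6 libraries, wild-type replicate 1 included, lay between -0.21 and 0.13. Within the wild type, all of set 2, it ran from -1.18 to 0.06, and within the homozygous libraries of that set from 0.28 to 0.51. B2m followed the pattern most closely, with a root mean square difference of 0.22 log2 units over the 11 libraries, then Psmb9 (0.27) and Psmb8 (0.29). RT1-CE5 (1.27) and Tap2 (1.03) were farthest from it. The members themselves make up the pattern, so their closeness to it is partly built in. RT1-CE5 and Tap2 also had the lowest means of the 8 (12.2 and 17.0 normalized reads), where counting error adds to the distance.

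Of 3913 other named genes with a mean of at least 50 normalized reads, the 8 nearest to the pattern were Ly86, a partner of a toll-like receptor relative on immune cells (0.18), Ifitm3, an antiviral membrane protein (0.21), and Ube2l6, the enzyme that conjugates ISG15 (0.22). They were followed by Ifih1, a sensor of viral RNA (0.24), Gbp2, a guanylate-binding GTPase (0.24), Trim34 (0.24), Gpx1, a glutathione peroxidase (0.25), and Mgmt, which repairs alkylated guanine (0.25). The distances are root mean square differences over 11 libraries, and likeness was not tested.

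**Figure D5:**
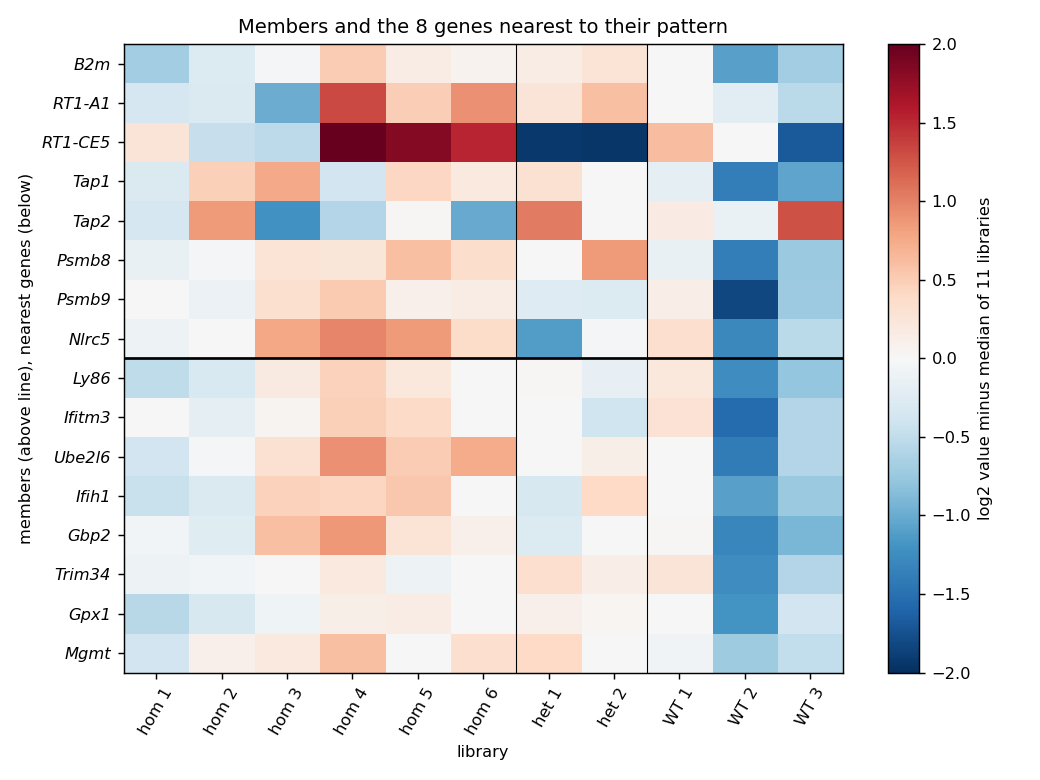
Log2 value of each gene in each library minus its median over the 11 libraries, all on 1 scaling (red higher, blue lower), for the 8 members above the line and the 8 nearest genes below it. Wild-type replicates 2 and 3 are the bluest columns, and wild-type replicate 1 stays near 0 in most rows.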

How the data were processed

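The members and gene lists were chosen with earlier results of these data known. Per the submitters' processing notes, reads were checked with FastQC and aligned with HISAT2 2.0.4 to rn6. Which program counted reads, and whether it used strand, is not given in the sources used here. Each deposited file holds a normalized signal per feature, which the values show to be reads divided by 1 size factor per library (0.807 to 1.39). At a tolerance of 0.001, 100% of values were whole multiples of 1 read, so reads were recovered. Median-of-ratios factors recomputed within each set equalled those factors. Libraries held 5406669 to 8723823 reads. limma 3.58.1 (R 4.3.3) was fitted on log2(value + 1) over 20956 features listed in both sets with a mean of at least 1, as 4 cells (genotype by set). This fit was tested on simulated data. edgeR 4.0.16 and DESeq2 1.42.0 on the recovered reads, which called 5 and 38 features against wild type, and 20 other settings were alternatives. Fold changes on this scale understate changes of genes with few reads. Genes outside the members were named as checks of labels, by their order in the lists, or as the 8 nearest in pattern, except Tek, Slc2a1, Neurod1 and, in the closing section, Irf8 and RT1-T24-4, chosen after their values were seen. A gene that the list order would name is not reported here.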

Additional observations from a re-analysis of the deposited data

Results flagged for a closer look

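B2m moved in opposite directions in the comparisons within each set. All of homozygous replicates 4 to 6 lay above all wild-type libraries (log2 difference 0.82), and all of homozygous replicates 1 to 3 lay below both heterozygous libraries (-0.53). RT1-A1 did the same, with 1.15 against wild type and -0.96 against heterozygous. Over all features, 6.14% lay wholly above the wild type and 15.1% wholly below the heterozygous libraries. The share of features that did both was not computed, so nothing is read from these genes doing so. The difference between the comparisons was not tested, because the first of them chose the genes. Among the 6 homozygous libraries, taken over both sets, none passed Dixon's 95% critical value in any member. The nearest was Tap2, where the highest library's gap was 0.576 of the range.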

How the results depend on the processing

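Depth limited RT1-CE5, Tap2 and Nlrc5 most. Over 22 alternatives the median difference of the members against wild type ran from 0.491 to 1.37, and against heterozygous from -0.173 to 0.0439 (0.759 to 1.37 and -0.139 to 0.0439 with 1 library left out). No alternative called a member against heterozygous, though DESeq2 gave RT1-CE5 no adjusted p there. With 1 library left out, Tap1 ran from -0.0359 (without homozygous replicate 3) to 0.485 against heterozygous, and Psmb8 from -0.806 to 0.050 (without heterozygous replicate 2). Nlrc5 ran from 0.264 to 1.35 without heterozygous replicate 1 or 2, and Tap2 from -1.28 without homozygous replicate 2 to -0.217 without heterozygous replicate 1. B2m was -0.350 without homozygous replicate 1 and Psmb9 0.221 without homozygous replicate 3. RT1-CE5 fell from 1.71 to 0.871 with a pseudocount of 5. Against wild type the 8 features called became 5 in edgeR, 38 in DESeq2, 5 with a pseudocount of 5, 3 with only the libraries of set 2, and 2 when Y-linked reads were added to the fit. Against heterozygous the 0 called became 205 in DESeq2, 17 with no set term and 5 with that Y-linked term. The setting with no set term compared all 6 homozygous libraries with each control, on 1 scaling. Homozygous replicates 1 to 3 thus joined the comparison with wild type, and replicates 4 to 6 that with heterozygous. The factors of that scaling differed from those within a set by -0.739% to 1.54%. With no set term RT1-A1 was 0.436, RT1-CE5 1.17 and B2m 0.544 against wild type, and RT1-A1 -0.250, B2m -0.259 and RT1-CE5 2.75 against heterozygous. With 1 library left out the counts ran from 2 (without wild-type replicate 3; 3 without homozygous replicate 4) to 11 and from 0 to 3 (without homozygous replicate 4). The replicate block compared wild type with homozygous replicates 1 to 3 in place of 4 to 6. Under it 4 and 2 features were called, and against wild type RT1-A1 differed by -0.289, B2m by 0.260 and RT1-CE5 by 0.114. The numbers share no stated origin, and same-numbered homozygous and heterozygous libraries correlated at 0.0525 and 0.118 in their deviations from group means.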

Other observations

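Irf8, a transcription factor of microglia and other myeloid cells that also binds class I promoters, held 424, 495 and 316 normalized reads in homozygous replicates 4 to 6 and 768, 207 and 254 in the wild type. In homozygous replicates 1 to 3 it held 387, 353 and 365, against 772 and 502 in the heterozygous libraries. The log2 differences were 0.24 and -0.76, and neither passed in limma (adjusted p = 0.949 and 0.511).

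RT1-T24-4, a class I gene of the MHC, held 42.7 normalized reads in wild-type replicate 1 and at most 3.3 in any of the other 10 libraries. It lies under 2 other features on the same strand, and near-identical RT1 copies can take each other's reads, so its value is uncertain.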
